A study of Rattus norvegicus with 11 samples.

Results

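Transcript levels of 8 immediate early genes were followed in cardiac tissue of Sprague Dawley rats: Nr4a1, Nr4a3, Fos, Jun, Junb, Egr1, Atf3 and Dusp1. They were taken by Ensembl gene ID from a table of 32883 gene IDs, and all 8 had enough counts to be tested. The IDs are ENSRNOG00000007607 for Nr4a1, ENSRNOG00000005964 for Nr4a3, ENSRNOG00000008015 for Fos, ENSRNOG00000026293 for Jun, ENSRNOG00000042838 for Junb, ENSRNOG00000019422 for Egr1, ENSRNOG00000003745 for Atf3 and ENSRNOG00000003977 for Dusp1. The set was chosen by the level of Nr4a1, noted as low with canagliflozin in these same libraries, so every difference between canagliflozin and another group is given as a description, with no p-value, and nothing is read from counts of genes called in such a comparison. Of the 8 genes, 7 encode transcription factors. Dusp1 encodes a phosphatase that switches off MAP kinases.

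RNA sequencing gave 11 libraries in 4 groups, named here by their treatment and by the numbers in their labels. The controls were libraries 115 and 95. All other rats received isoproterenol, which stimulates beta-adrenergic receptors and brings about heart failure, for 10 days at a daily dose of 5 mg/kg. Libraries 79, 98 and 119 had isoproterenol alone. For libraries 78, 133 and 143 the titles add canagliflozin, an inhibitor of glucose reabsorption in the kidney, for 4 weeks at a daily dose of 3 mg/kg. For libraries 103, 113 and 57 they add daily exercise of 60 min, also over 4 weeks. The titles do not give the order of the treatments. Nor do they give the time from the last dose or exercise bout to sampling, which may differ between groups. The series title speaks of the drug together with exercise, while the labels of these last libraries name exercise only, and whether these rats also had the drug cannot be told. The labels do not say that each library is from a separate animal, so errors and p-values describe the spread between libraries, which may be technical.

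Immediate early genes are transcribed within minutes of a stimulus, without new protein synthesis, and their mRNAs decay fast. In heart muscle and its vessels, catecholamines act on them through cyclic AMP and CREB, and stretch and growth factors act through MAP kinases and serum response factor. NR4A1 and NR4A3 are orphan nuclear receptors. FOS, JUN and JUNB are subunits of the AP-1 dimer, EGR1 is a zinc finger factor, and ATF3 is a stress-induced factor of the same leucine zipper class as AP-1.

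RefSeq promoter windows on the rat assembly GRCr8 matched 4 of the 8 genes by symbol: Nr4a1, Junb, Egr1 and Dusp1. The sequences of 3 are printed, because Nr4a1 is the gene around which the set was built and because Dusp1 and Junb had the highest levels per length. Each is the 250 bases before the start site, on the plus strand, at chr7:134259888-134260137 for Nr4a1, chr19:40080876-40081125 for Junb and chr10:17184603-17184852 for Dusp1. Capitals mark matches, on either strand, to the cyclic AMP response element (TGACGTCA), its core (TGACG) or the related TGCGTCA, to the AP-1 site (TGANTCA), to the TATA box (written TATAAA) or to the CArG box that serum response factor binds.
Nr4a1: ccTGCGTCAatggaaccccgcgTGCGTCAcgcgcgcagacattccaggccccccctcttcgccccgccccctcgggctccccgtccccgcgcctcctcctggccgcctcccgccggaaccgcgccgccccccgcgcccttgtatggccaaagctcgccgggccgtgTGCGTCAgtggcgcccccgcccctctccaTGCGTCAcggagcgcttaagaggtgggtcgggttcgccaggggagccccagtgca
Junb: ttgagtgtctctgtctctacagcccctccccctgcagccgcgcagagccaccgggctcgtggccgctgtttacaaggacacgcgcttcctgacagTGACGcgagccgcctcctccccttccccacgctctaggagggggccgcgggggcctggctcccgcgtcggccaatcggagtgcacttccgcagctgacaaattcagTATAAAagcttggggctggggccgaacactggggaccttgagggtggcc
Dusp1: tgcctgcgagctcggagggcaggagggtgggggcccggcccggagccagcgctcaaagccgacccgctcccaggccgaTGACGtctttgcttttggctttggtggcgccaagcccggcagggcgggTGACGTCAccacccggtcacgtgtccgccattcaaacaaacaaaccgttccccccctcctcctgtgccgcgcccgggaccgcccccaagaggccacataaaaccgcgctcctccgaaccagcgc

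The Nr4a1 window held TGCGTCA 4 times, and 1.84% of 27457 windows of this length held it at least once. This motif was chosen with the sequence in view. Its reverse complement contains TGACG, the core of the cyclic AMP response element, so the 4 TGACG matches in the Nr4a1 window are the same sites. TGACG stood in 19.0% of all windows. The full element TGACGTCA, present in 1.7% of windows, occurred 1 time before Dusp1 and 0 times before Nr4a1, Junb and Egr1. The CArG box, present in 1.5% of windows, occurred 2 times before Egr1 and 0 times before the other three. The AP-1 site TGANTCA stood in 6.36% of windows and in none of these 4. TATAAA stood in 13.1% of windows and, of these 4, in that of Junb. A match describes the letters only and says nothing of binding.

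Library totals ranged from 14742164 to 25034831 counts, of which the 8 genes took 0.0748 to 0.257%. Control library 95 differed from the rest: it had counts in 14692 genes against 16916 to 17703, and its TMM factor, which scales libraries to each other, was 0.568 against 0.910 to 1.23. Levels below are read counts as CPM, scaled to the library total times this factor. For the control libraries the deposited FPKM (scaled by the library total and gene length, with no TMM factor) is given as well. In whole tissue, fewer cells of a type and less RNA per cell cannot be told apart.

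Per length of the gene model, Dusp1 was the most abundant of the 8, with a median of 202 FPKM over the 11 libraries. Junb followed at 90.9, Jun at 69.1, Nr4a1 at 33.8, Egr1 at 32.5, Fos at 13.5, Atf3 at 7.47 and Nr4a3 at 0.633 FPKM. Ranges overlapped between neighbours in this order: Junb ran from 29.0 to 491 FPKM, Jun from 37.7 to 97.3, Nr4a1 from 11.5 to 47.5 and Egr1 from 7.30 to 77.8. The lowest count of any of these genes in a library was 23, for Nr4a3 in isoproterenol library 119 (exact 95% Poisson interval 14.6 to 34.5, counting error only). The other 7 genes had at least 204 counts in every library, so counting error was small beside the spread between libraries.

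**Figure D1:**
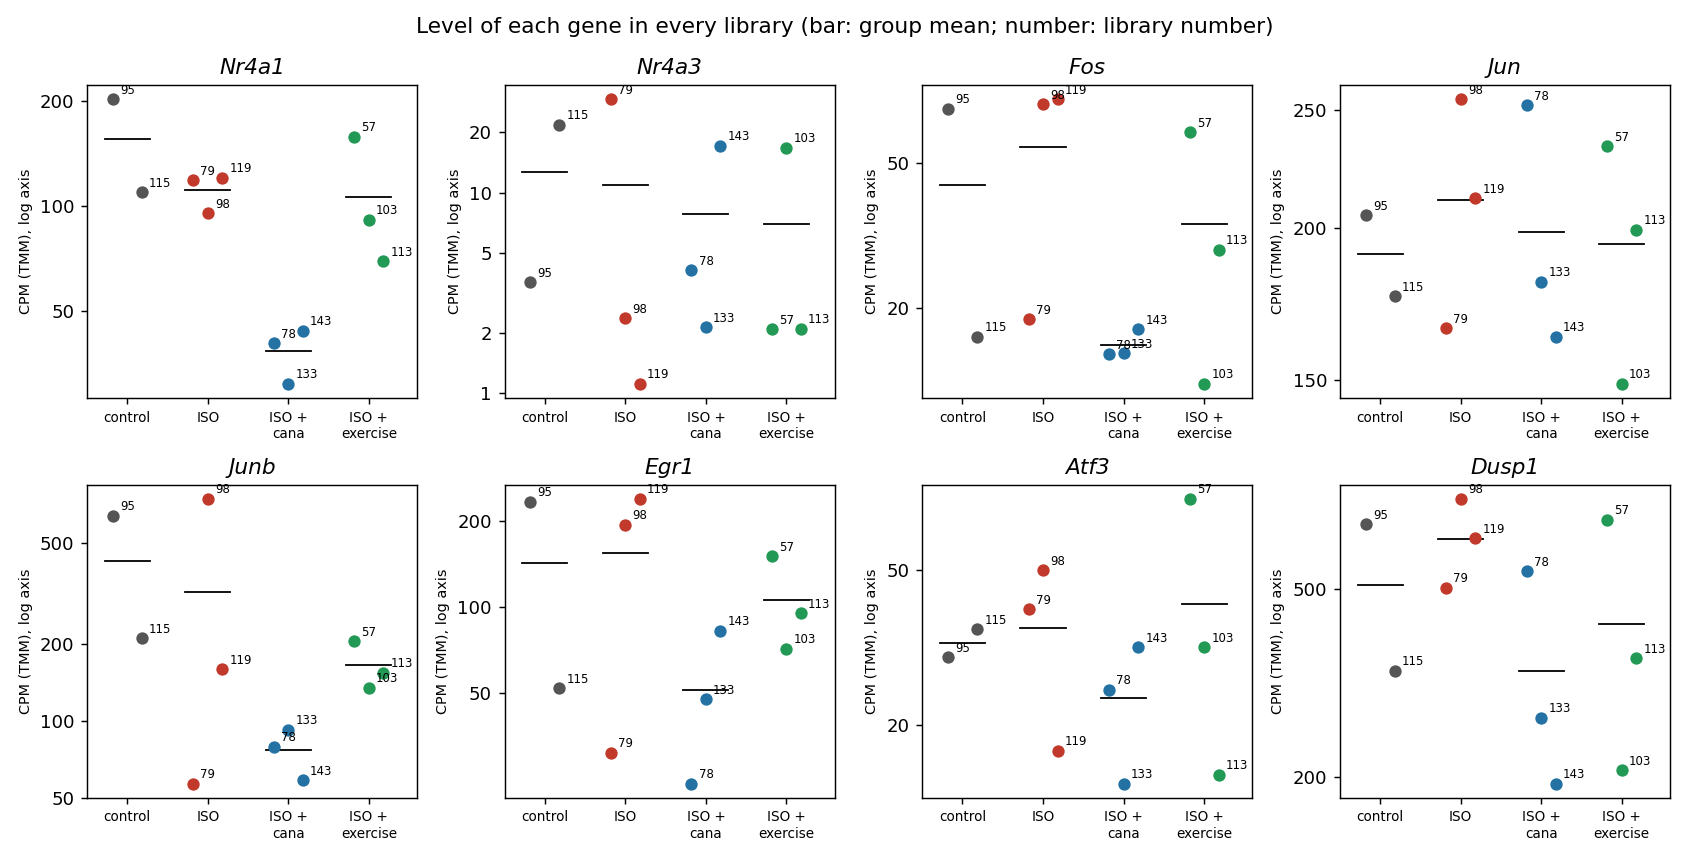
CPM (TMM-scaled, log axis) of each gene in every library, by group (ISO, isoproterenol; cana, canagliflozin), with library numbers beside the points and a bar at the group mean. The 3 canagliflozin libraries of Nr4a1, at 31.0 to 44.0 CPM, sit below all 8 other libraries, while in the other panels they sit among them.

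Nr4a1, a nuclear receptor known in the heart and in immune cells as a rapid response gene, was low in all 3 canagliflozin libraries, at 40.5 CPM in library 78, 31.0 in 133 and 44.0 in 143. It was at 118, 95.2 and 120.5 CPM in isoproterenol libraries 79, 98 and 119. The exercise libraries 103, 113 and 57 had 91.4, 69.4 and 158 CPM. The control libraries had 109 CPM (115) and 202 CPM (95). No library outside the canagliflozin group was as low as any within it: the highest with canagliflozin was 44.0 CPM and the lowest elsewhere 69.4 CPM.

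The same order held in FPKM, with 17.0 as the highest canagliflozin value and 24.0 as the lowest of the other 8. The 2 control libraries, far apart in CPM, were alike in FPKM (35.8 ± 0.433, SD, n = 2), which leaves out the TMM factor. Of the 8 genes, Nr4a1 alone lay lower in the canagliflozin libraries than in all 8 others, on both scales. Among all tested genes 0.841% did so in CPM and 0.307% in FPKM. The log2 difference between canagliflozin and isoproterenol was -1.53 (SE 0.358), that between canagliflozin and control -2.01 (SE 0.389), and that between exercise and canagliflozin 1.46 (SE 0.357). The control value rested in part on library 95, without which it was -1.51. These differences share the canagliflozin libraries and were the reason for choosing the gene.

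Nr4a1 was also compared between the groups other than canagliflozin. The isoproterenol libraries are shared with the comparison on which the set was built, so tests that use them are not independent of the choice. With isoproterenol it was at 111 ± 14.0 CPM (n = 3), with exercise at 106 ± 45.9 (n = 3) and in control at 156 ± 65.5 (n = 2). The edgeR log2 difference was -0.48 (SE 0.388, adjusted p = 0.847) for isoproterenol against control. It was -0.07 (SE 0.350, adjusted p = 1) for exercise against isoproterenol and -0.55 (SE 0.387, adjusted p = 0.865) for exercise against control. None of these passed the test. Scaled by library totals only, the isoproterenol difference was 0.00, and without control library 95 it was 0.03.

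Nr4a3, the close relative of Nr4a1, did not share its pattern. It was at 17.2 CPM in canagliflozin library 143, against 4.09 in 78 and 2.13 in 133. Isoproterenol libraries had 29.2 CPM (79), 2.36 (98) and 1.12 (119). Exercise libraries had 16.8 (103), 2.10 (113) and 2.09 (57), and control libraries 21.8 (115) and 3.58 (95), or 5.11 and 0.463 FPKM. The values fell into a low and a high set: 1 library of each group was at 16.8 CPM or more and the other 7 at 4.09 or less. Groups overlapped in every comparison, and the log2 difference between canagliflozin and isoproterenol was -0.48 (SE 1.31). Without isoproterenol library 79 that difference was 2.16.

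Among the AP-1 subunits, Fos had a narrow low range with canagliflozin and a wide range elsewhere. Fos was at 14.9, 14.98 and 17.5 CPM in canagliflozin libraries 78, 133 and 143. In isoproterenol libraries 79, 98 and 119 it was at 18.6, 72.4 and 74.9 CPM. The canagliflozin libraries lay below those of isoproterenol, but library 79 at 18.6 CPM was next to library 143 at 17.5. Control library 115, at 16.6 CPM, and exercise library 103, at 12.4 CPM, were as low as the canagliflozin group. The other exercise libraries had 28.8 CPM (113) and 60.8 (57), and control library 95 had 70.6. In FPKM the controls 115 and 95 were at 10.8 and 25.2. The log2 difference between canagliflozin and isoproterenol was -1.81 (SE 0.699). That between canagliflozin and control was -1.46 (SE 0.752), and -0.08 without control library 95.

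Junb varied widely between libraries of a group. With canagliflozin it was at 79.1, 92.4 and 58.4 CPM (libraries 78, 133 and 143). Isoproterenol library 98 had 743 CPM, library 119 had 159 and library 79 had 56.8, so the group held both the highest and the lowest value of the study. Exercise libraries had 135 (103), 154 (113) and 205 CPM (57), and control libraries 211 (115) and 638 (95), or 122 and 203 FPKM. The log2 difference of canagliflozin from isoproterenol was -2.06 (SE 0.795), but -0.50 without isoproterenol library 98. All 3 exercise libraries were below both controls, with 205 and 211 CPM as the nearest values. That comparison had a log2 difference of -1.36 (SE 0.844, edgeR adjusted p = 0.860), which did not pass the test, and -0.34 without control library 95.

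Jun had the narrowest range of the 8 genes in CPM. It ranged from 149 CPM in exercise library 103 to 255 CPM in isoproterenol library 98. Means were 190.3 ± 20.6 CPM in control (n = 2), 211 ± 44.9 with isoproterenol, 199 ± 47.4 with canagliflozin and 194 ± 42.5 with exercise (n = 3 each). The log2 difference between canagliflozin and isoproterenol was -0.09 (SE 0.301), and group means of log2 CPM were at most 0.13 apart. On the scale of library totals the controls were lower: they had 58.7 FPKM (115) and 37.7 FPKM (95), a mean of 48.2, against means of 71.9 with isoproterenol, 70.6 with canagliflozin and 65.0 with exercise. With library totals only, the log2 difference from control was 0.58 for isoproterenol, 0.55 for canagliflozin and 0.43 for exercise.

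Egr1 was low in canagliflozin libraries 78 (24.0 CPM) and 133 (47.4), and at 82.5 CPM in 143. Isoproterenol libraries 119 and 98 had 239 and 195 CPM, while library 79 had 30.8. Exercise libraries had 71.3 (103), 95.3 (113) and 150.3 CPM (57), and control libraries 52.0 (115) and 234 (95), or 17.1 and 42.5 FPKM. Groups overlapped, since isoproterenol library 79, control library 115 and exercise library 103 lay within the canagliflozin range. The log2 difference between canagliflozin and isoproterenol was -1.59 (SE 0.775), and that from control was -1.48 (SE 0.836), or -0.02 without control library 95.

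Atf3 overlapped between all groups. Canagliflozin libraries had 24.7, 14.1 and 31.7 CPM, and isoproterenol libraries 79, 98 and 119 had 39.7, 49.96 and 17.2. The highest value, 76.3 CPM, was in exercise library 57, beside 31.7 and 14.9 in libraries 103 and 113. Control libraries 115 and 95 had 35.3 and 29.8 CPM, or 8.02 and 3.74 FPKM. The log2 difference between canagliflozin and isoproterenol was -0.60 (SE 0.571). It was -0.27 without isoproterenol library 98, -0.34 without canagliflozin library 133 and -0.94 without isoproterenol library 119.

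Dusp1, whose product restrains the MAP kinases that induce the other genes, was at 544, 266 and 193 CPM in canagliflozin libraries 78, 133 and 143. Isoproterenol libraries had 502, 774 and 638 CPM. Exercise libraries ran from 206 (103) through 356 (113) to 699 (57), and controls were at 335 (115) and 685 (95). In FPKM the controls were close to each other, at 178 and 201. Library 78 was within the isoproterenol range, so Dusp1 was low in 2 of the 3 canagliflozin libraries only. The log2 difference was -0.93 (SE 0.541), and -1.47 without library 78.

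**Figure D2:**
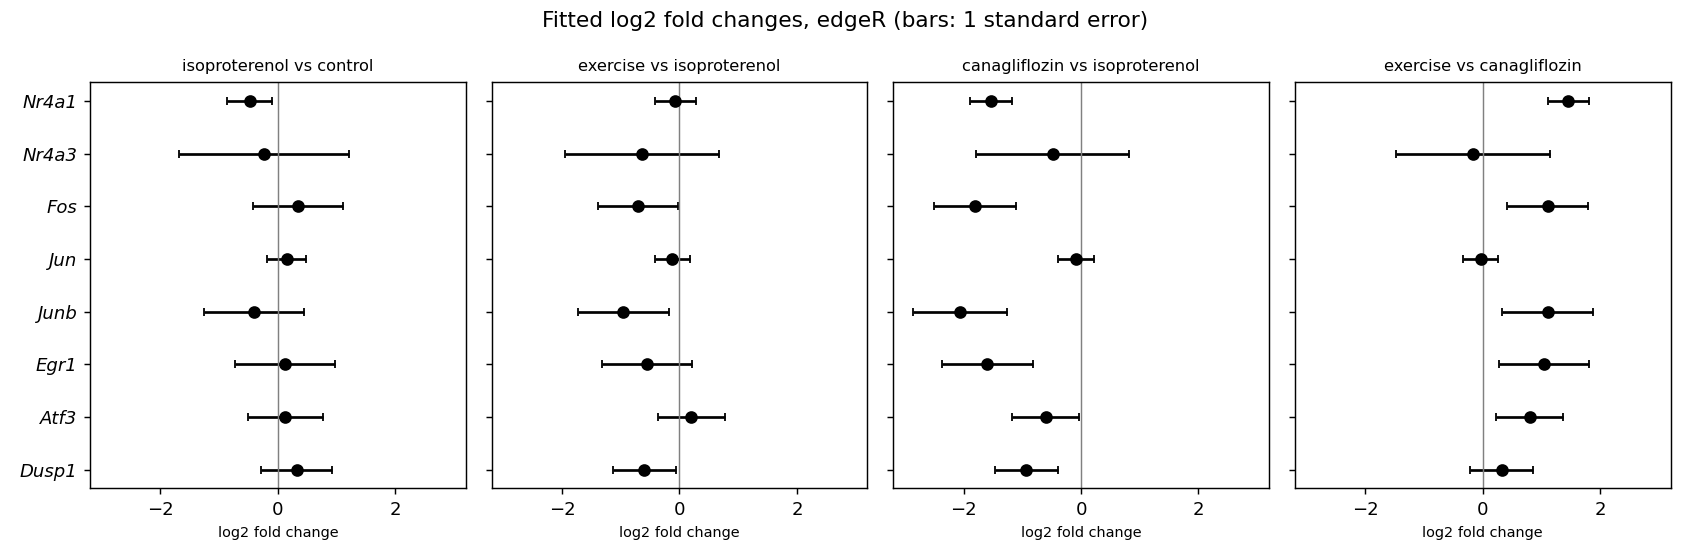
Fitted log2 difference of each gene (point) with 1 standard error (bar) in 4 comparisons, named above each panel as first group against second. In canagliflozin against isoproterenol all 8 points lie below 0, from -2.06 for Junb to -0.09 for Jun, and Nr4a1 at -1.53 has a standard error of 0.358 while those of Fos, Junb and Egr1 are 0.699 to 0.795.

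Counted as a set, the 8 genes were all lower with canagliflozin than with isoproterenol in the edgeR fit, where 51.1% of all tested genes were lower. In limma-voom 7 were lower and Nr4a3 was at 0.29, and Jun was at 0.08 without isoproterenol library 98. Their median log2 difference was -1.23, or -0.93 for the 7 genes other than Nr4a1, against -0.01 over all tested genes. Libraries of the groups did not overlap for 2 of the 8, Nr4a1 and Fos, both lower, where 3.58% of tested genes lay apart in that direction. edgeR called 0 of the 8 at an adjusted p under 0.05 in this comparison, and 0% of all tested genes (3.3% at an unadjusted p under 0.05). DESeq2 called 0 of the 8 and 0.00963% of tested genes, and limma-voom 0 of the 8 and 0% of genes. As the set was built on this comparison, nothing is read from these counts.

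Against control, 7 of the 8 were lower with canagliflozin (45.8% of all tested genes were), with a median of -1.09 against 0.08 over all genes. This median was -0.33 without control library 95 and -0.53 with library totals only. Nr4a1 and Junb lay apart, lower, as did 10.8% of tested genes. Exercise against canagliflozin gave 6 of 8 higher, where 46.3% of all genes were, and a median of 0.92 against -0.04. Nr4a1 and Junb lay apart, higher, as did 6.55% of tested genes. The median was 0.33 without exercise library 57. All 3 comparisons share the canagliflozin libraries. edgeR and limma-voom called 0 of the 8 in both, and each called 0% of tested genes. DESeq2 called 1 of the 8 against control, where it called 1.44% of tested genes, and 0 of the 8 and 0% of tested genes for exercise against canagliflozin. These comparisons rest on the canagliflozin libraries that the choice used, so nothing is read from their calls. Unadjusted p-values under 0.05 occurred in 14.4% of tested genes against control and in 2.42% for exercise against canagliflozin.

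The control, isoproterenol and exercise groups gave no call among the 8 when compared with each other. For isoproterenol against control, 5 genes were higher, where 55% of tested genes were, and 3 lower, with a median log2 difference of 0.12 against 0.07 over all genes. edgeR called 0 of the 8 at an adjusted p under 0.05 (0% of tested genes), with 0 at an unadjusted p under 0.05 (5.21% of tested genes). Nr4a1 had -0.48 in this fit, Junb -0.41 and Nr4a3 -0.23, while limma-voom gave -0.47, -1.06 and -1.37. In edgeR Fos had 0.35 (SE 0.766, edgeR adjusted p = 0.941) and Dusp1 0.32 (SE 0.604, adjusted p = 0.927). No member lay apart, against 13.4% of tested genes.

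Exercise against isoproterenol gave 7 genes lower and 1 higher, where 51.7% of tested genes were lower, and a median of -0.58 against -0.01. Junb had -0.95 (SE 0.771), Fos -0.70 (SE 0.681) and Dusp1 -0.60 (SE 0.538), each at an edgeR adjusted p of 1. edgeR called 0 of the 8 and 0% of tested genes. At an unadjusted p under 0.05 there were 0 of the 8 and 1.48% of tested genes. No member lay apart, against 8.61% of tested genes. Without isoproterenol library 98 the Junb difference was 0.61, the opposite direction. Fos was at -1.42 without exercise library 57 and -0.30 without 103, and Dusp1 at -1.18 and -0.28.

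Exercise against control gave 6 lower, where 45.6% of tested genes were, and 2 higher, with a median of -0.39 against 0.06. edgeR called 0 of the 8 and 0% of tested genes, and unadjusted p-values under 0.05 were found for 0 of the 8 and 4.85% of tested genes. Junb lay apart, lower, as did 7.15% of tested genes. Without control library 95 the median was 0.19, with Fos at 1.05 and Egr1 at 1.04. Nr4a3 (-1.65), Junb (-0.34) and Nr4a1 (-0.03) stayed lower there. With library totals only, and library 95 kept, the median was 0.22. The direction of the median thus depended on that library and on the scaling. In each of these 3 comparisons limma-voom called 0 of the 8 and 0% of tested genes. DESeq2 called 0 of the 8 and 0% of tested genes for isoproterenol against control and for exercise against isoproterenol. For exercise against control it called 0 of the 5 members to which it gave an adjusted p, and 0.495% of the 2425 genes that had one. Its independent filter gave none to Nr4a3, Fos and Atf3 there.

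Whether the other genes follow Nr4a1 was also asked across libraries, from log2 CPM. Over all 11 libraries the values include the 3 low canagliflozin levels for which the set was chosen, so they are given as a description, with no p-value. Fos had the highest of the 7 correlations with Nr4a1, with Pearson's r = 0.645 and Spearman's rho = 0.664. Junb had r = 0.591 and rho = 0.536, Egr1 0.580 and 0.609, and Dusp1 0.577 and 0.609. Atf3 had r = 0.521 and rho = 0.473, Jun 0.105 and 0.191, and Nr4a3 0.00 and -0.145. The median r of all tested genes with Nr4a1 was -0.103, and 4.81% had a higher r than Fos. Without control library 95, r was 0.591 for Atf3, 0.559 for Fos, 0.511 for Dusp1, 0.474 for Egr1 and 0.447 for Junb. It was 0.0762 for Jun and 0.0582 for Nr4a3. With library totals instead of TMM, r was 0.564 for Fos, 0.528 for Egr1, 0.498 for Junb, 0.423 for Atf3 and 0.394 for Dusp1. On that scale Jun was at -0.238 and Nr4a3 at -0.0470.

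The relation was tested over the 8 libraries without the canagliflozin group, by exact permutation and with p-values adjusted over all 14978 other tested genes. Dusp1 had the highest r there, 0.563 (exact permutation p = 0.150, adjusted 0.378), and rho = 0.524 (p = 0.197, adjusted 0.769). Fos had r = 0.472 (exact permutation p = 0.242, adjusted 0.460) and rho = 0.452 (p = 0.267, adjusted 0.777). Egr1 had r = 0.358 (exact permutation p = 0.385, adjusted 0.587) and rho = 0.429 (p = 0.299, adjusted 0.783). For Junb, r was 0.302 (exact permutation p = 0.466, adjusted 0.653) and rho 0.310 (p = 0.462, adjusted 0.820). For Atf3, r was 0.415 (exact permutation p = 0.305, adjusted 0.517) and rho 0.238 (p = 0.582, adjusted 0.861).

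Jun gave r = 0.214 (exact permutation p = 0.616, adjusted 0.763) and rho = 0.357 (p = 0.389, adjusted 0.802). Nr4a3 gave r = -0.0884 (exact permutation p = 0.832, adjusted 0.902) and rho = -0.167 (p = 0.703, adjusted 0.904). None of the 7 relations passed, adjusted or not, where 17.4% of all genes had an unadjusted p under 0.05 and 0 passed after adjustment. Over the 11 libraries without the 2 farthest from the Nr4a1 median, canagliflozin libraries 133 and 78, r was 0.540 for Fos, 0.529 for Junb, 0.336 for Egr1 and 0.733 for Dusp1. As deviations from group means, r was 0.524 for Fos, 0.514 for Dusp1 and 0.064 for Junb.

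**Figure D3:**
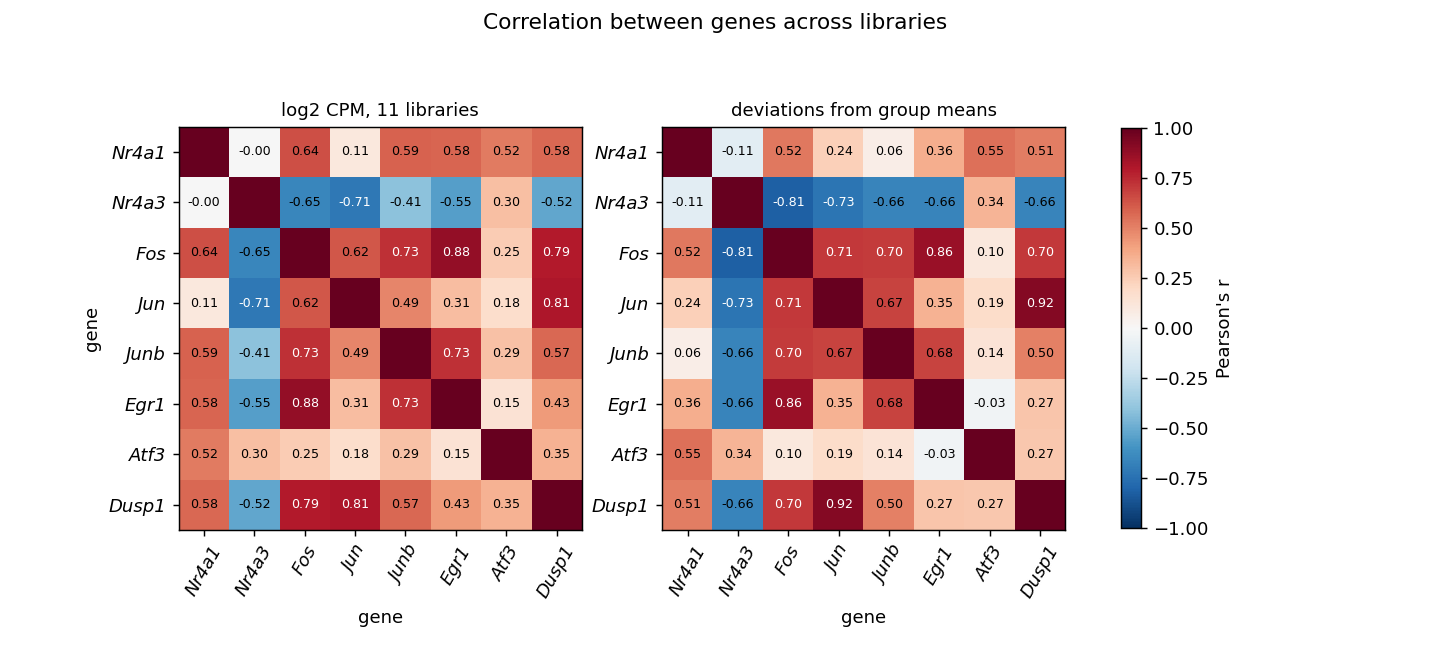
Pearson's r between the 8 genes across the 11 libraries, from log2 CPM (left) and from deviations from group means (right). Fos, Jun, Junb, Egr1 and Dusp1 are positive with each other in both panels, from 0.27 to 0.92 (Jun with Dusp1, right). Nr4a3 is negative with Fos, Jun, Junb, Egr1 and Dusp1.

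Fos and Egr1 were closer to each other than either was to Nr4a1. Fos was taken as a reference gene after its values had been seen, so its relations are a description, with no p-value. Over the 11 libraries Egr1 had r = 0.880 and rho = 0.836 with Fos, and 0.00668% of the other tested genes had a higher r. Dusp1 had r = 0.792 and rho = 0.727, with 0.234% of genes higher. Junb had r = 0.730 and rho = 0.564, with 0.848% higher. Jun had r = 0.622 and rho = 0.536, and Atf3 r = 0.254 and rho = 0.200. Over the 8 libraries without the canagliflozin group, r with Fos was 0.893 for Egr1, 0.896 for Dusp1, 0.898 for Jun and 0.638 for Junb. Over the 11 libraries with library totals instead of TMM, it was 0.871 for Egr1, 0.756 for Dusp1, 0.361 for Jun and 0.686 for Junb.

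Nr4a3 ran against Fos, with r = -0.653 and rho = -0.536 over the 11 libraries and r = -0.856 over those 8. Each of the 4 libraries with high Nr4a3 (115, 79, 143 and 103) had Fos at 18.6 CPM or less. The 5 libraries with Fos at 28.8 CPM or more (95, 98, 119, 113 and 57) had Nr4a3 at 3.58 CPM or less. Canagliflozin libraries 78 and 133 were low in both. Without control library 95, r with Fos was 0.856 for Egr1 and -0.672 for Nr4a3. Without isoproterenol libraries 119 and 98, the farthest from the Fos median, it was 0.815 for Egr1, 0.718 for Dusp1, 0.730 for Junb and -0.514 for Nr4a3.

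**Figure D4:**
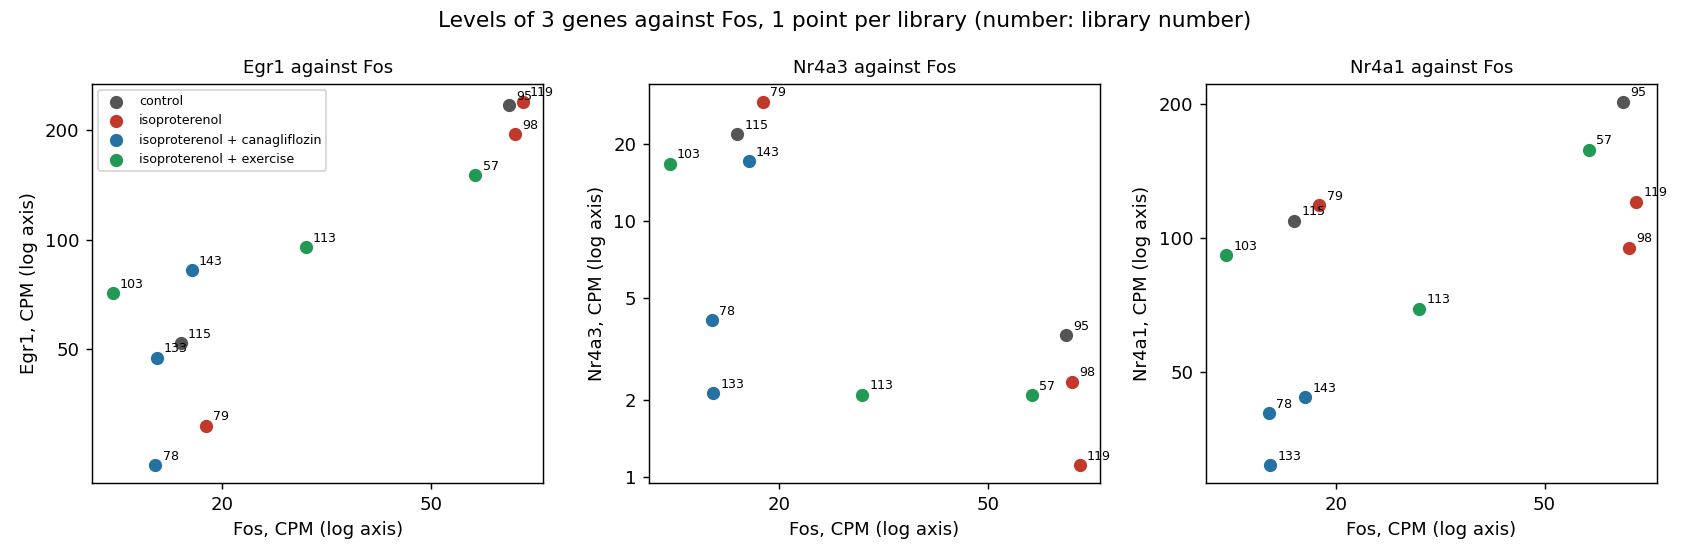
Egr1, Nr4a3 and Nr4a1 against Fos in each library (CPM, log axes), coloured by group, with library numbers. Egr1 goes up with Fos, and Nr4a3 is high (16.8 CPM or more) only where Fos is at 18.6 CPM or less. The 3 canagliflozin libraries have Nr4a1 values below those of other libraries with equally low Fos. These low values were the reason for choosing the gene.

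In the last panel of that plot, Nr4a1 differed between libraries with like levels of Fos. Libraries 115, 79 and 103 had Fos at 16.6, 18.6 and 12.4 CPM, close to the 14.9 to 17.5 CPM of the canagliflozin group. Their Nr4a1 was at 109, 118 and 91.4 CPM, against 31.0 to 44.0 with canagliflozin. These libraries were picked after the values had been seen, so no test is given. The low Nr4a1 levels with canagliflozin were also the reason for choosing the gene, so nothing is read from the gap.

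The spread within groups differed among the 8 genes. The SD of log2 CPM within groups was 0.435 for Nr4a1, 0.306 for Jun and 0.702 for Dusp1, where the median over all tested genes was 0.549. It was 0.828 for Atf3, 1.03 for Fos, 1.11 for Junb, 1.18 for Egr1 and 1.90 for Nr4a3. Among genes of like level (within 0.5 in mean log2 CPM), 93.8% had a smaller SD than Fos, 94.0% than Junb, 95.9% than Egr1, 96.7% than Nr4a3 and 52.4% than Nr4a1. Nr4a1 had the widest gap between group means relative to its spread, at 1.96 in log2 CPM between the highest and lowest mean, a gap that the choice of the gene used. Without control library 95 the SDs were 0.394 for Nr4a1, 0.937 for Fos and 1.11 for Egr1, against a median of 0.447.

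**Figure D5:**
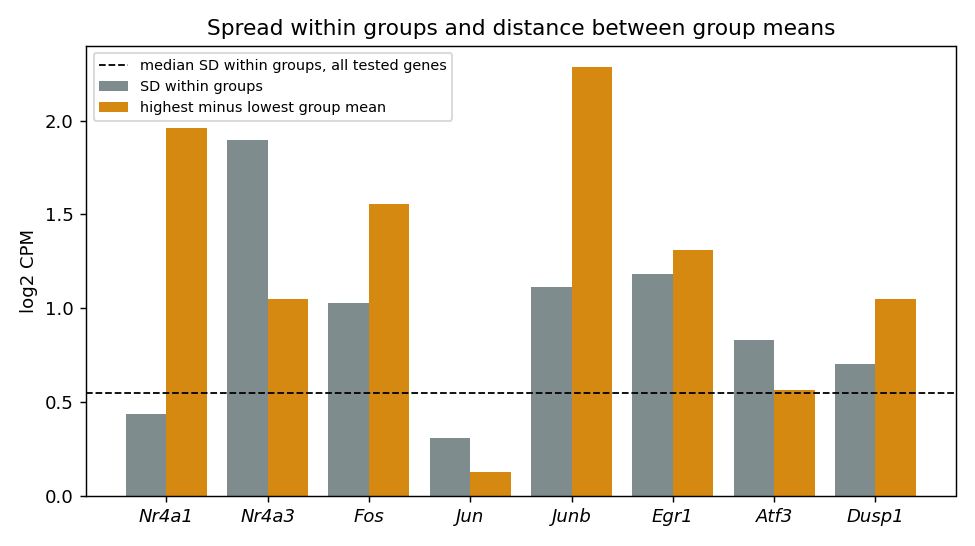
SD of log2 CPM within groups (grey) and highest minus lowest group mean (orange) for each gene, with the median SD of all tested genes (0.549) as a dashed line. Fos, Junb, Egr1, Atf3, Dusp1 and Nr4a3 have grey bars above the line, and Nr4a1 (0.435) and Jun (0.306) below it.

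Some library measures moved with Nr4a1. Over the 11 libraries, Spearman's rho of Nr4a1 was -0.645 with the number of genes detected and -0.655 with the TMM factor. These are descriptions without a test, since both measures depend on the same counts. They also include the low canagliflozin levels for which Nr4a1 was chosen, and were not computed without those libraries. Dusp1 had -0.455 and -0.509, and the other 6 genes ran from -0.318 to 0.0545 and from -0.245 to 0.00. With the length trend described next, rho was -0.573 for Dusp1, -0.445 for Jun and -0.418 for Nr4a1. The canagliflozin libraries 133 and 143 also had more counts in long genes than the average library, with rank correlations of log ratio and gene length of 0.283 and 0.388, against -0.227 to 0.161 in the other 9. With that trend as an offset, the Nr4a1 difference between canagliflozin and isoproterenol was -1.59, and with library totals only it was -1.40. The time of day and the interval between death and sampling are not given in the labels used here, so the part of tissue handling in any of these differences was not tested. The tissue was not checked against cell markers, since the gene IDs of the files were not paired with symbols.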

How the data were processed

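Raw counts per Ensembl gene were deposited by the authors in 1 table, with a column for each of the 11 libraries, per the file headers. The same table holds FPKM values, per the file headers, which do not say how these were computed. They were taken here as counts scaled by gene model length and library total. CASAVA 1.8 and TopHat2 2.0.6 are named in the submitters' processing notes. For the counting tool, strand setting, genome build and annotation the sources used here give nothing, so overlapping genes are uncertain. Columns were matched to libraries by the number in their labels. No column belonged to another sample. Each pair of libraries in a group differed beyond sampling of reads (chi-square per degree of freedom 32.5 to 411).

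Counts were tested with edgeR 4.0.16 under R 4.3.3: TMM factors, genes kept by filterByExpr (14979), a robust quasi-likelihood fit of the 4 group means to all 11 libraries, and Benjamini-Hochberg adjustment over all tested genes in each of 6 comparisons. The threshold was an adjusted p of 0.05. DESeq2 1.42.0 (4 group means, all genes, with its independent filter) and limma-voom (limma 3.58.1) were alternatives, as were other normalisations, filters, a gene length offset, fits to 2 groups at a time, and the omission of single libraries. Library totals without TMM factors, Fos as a reference gene and 3 further DESeq2 settings (an intercept, other gene filters, no independent filter) were chosen after seeing the data, the DESeq2 settings after the calls of earlier ones. The edgeR and correlation steps were tested on simulated data. The simulated counts varied less between libraries than the real ones. The simulated correlations used 11 libraries and sampled permutations, not the exact test over 8. These runs therefore check the code and do not show the power of the tests here. Correlations were taken on log2 CPM (prior count 2). Those with Nr4a1 were tested over the 8 libraries outside the canagliflozin group, with two-sided exact permutation tests. The test planned over all 11 libraries is not printed, because the choice of the genes used the canagliflozin values of Nr4a1.

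The 8 genes and the tests were chosen with earlier results of these data known. Their symbols came with the gene list. The reference paired 0 IDs of the table with a symbol, so the lists drawn up for other immediate early genes, upstream signalling, heat shock, hypoxia and cell type markers were not analysed here. Genes named were the 8 members and the 2 IDs whose level across libraries was most like that of Nr4a1, by the smaller of Pearson's r with and without control library 95. Figures were drawn with matplotlib 3.10.9.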

Additional observations from a re-analysis of the deposited data

How the results depend on the processing

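No paired analysis was possible because the groups share no library number. The lower Nr4a1 with canagliflozin than with isoproterenol kept its direction under every alternative run, from -1.64 to -1.40 on the log2 scale. The gene was chosen for this difference and the libraries of these groups did not overlap for it, so nothing is read from the kept direction. edgeR called 0 genes in each comparison, while DESeq2 called 12 for exercise against control, 2 for canagliflozin against isoproterenol and 203 for canagliflozin against control (1 of the 8 genes, from which nothing is read, since the choice of the set used these libraries). The 3 DESeq2 settings chosen after seeing such counts also called 2 for canagliflozin against isoproterenol and 1 of the 8 genes for canagliflozin against control, and each called 1 gene for exercise against canagliflozin. With an intercept and all genes with any count, DESeq2 called 16 for isoproterenol against control, 18 for exercise against control and 206 for canagliflozin against control. On the genes edgeR tested these counts were 14, 17 and 240, and without the independent filter 0, 2 and 219. Leaving out 1 library at a time, edgeR called 0 to 2688 genes for isoproterenol against control, 0 to 2766 for exercise against control and 0 to 3900 for canagliflozin against control (0 to 2 of the 8 genes). The upper counts came without control library 115, which leaves library 95 as the only control, assumed to vary like the other groups.

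Differences that did not pass the threshold changed direction as follows. For isoproterenol against control, limma-voom gave -0.0743 for Egr1 and -0.0144 for Atf3, the length offset -0.13 for Jun, -0.30 for Egr1 and -0.11 for Atf3, and library totals 0.00447 for Nr4a1 and 0.32 for Junb. Leaving out 1 library, the log2 difference ran from -0.84 to 0.0340 for Nr4a1, -2.88 to 1.62 for Nr4a3, -0.34 to 1.74 for Fos, -0.0155 to 0.295 for Jun, -1.98 to 0.61 for Junb, -0.58 to 1.58 for Egr1, -0.20 to 0.47 for Atf3 and -0.0861 to 0.94 for Dusp1. For exercise against isoproterenol it ran from -0.47 to 0.16 for Nr4a1, -2.37 to 2.01 for Nr4a3, -0.275 to 0.0409 for Jun, -1.43 to 0.61 for Junb and -0.61 to 0.60 for Atf3. For exercise against control it ran from -2.60 to 0.97 for Nr4a3, -1.08 to 1.05 for Fos, -0.13 to 0.19 for Jun, -1.13 to 1.04 for Egr1, -0.49 to 0.73 for Atf3 and -0.86 to 0.35 for Dusp1. In that comparison Jun was at -0.00359 with RLE factors, -0.00222 with the stricter filter, -0.00328 with DESeq2 on the genes edgeR tested (with or without its independent filter), -0.0135 with limma-voom and -0.23 with the length offset. Library totals gave 0.27 for Fos, 0.22 for Egr1 and 0.22 for Dusp1. In comparisons with canagliflozin, leaving out 1 library gave -1.81 to 2.16 for Nr4a3 and -0.294 to 0.0757 for Jun against isoproterenol, and -2.04 to 1.13 for Nr4a3 and -0.147 to 0.186 for Jun against control. For exercise against canagliflozin it gave -1.89 to 1.17 for Nr4a3, -0.191 to 0.174 for Jun, -0.0154 to 1.20 for Atf3 and -0.253 to 0.870 for Dusp1. There the length offset gave 0.0307 for Jun and 0.0484 for Nr4a3, against control it gave -0.264 for Jun, and limma-voom gave 0.293 for Nr4a3 against isoproterenol. The cause of these changes was not tested.

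Correlations with Nr4a1 moved without the 2 libraries farthest from its median, to -0.291 for Nr4a3, 0.540 for Fos, 0.392 for Jun, 0.336 for Egr1, 0.303 for Atf3 and 0.733 for Dusp1. As deviations from group means they were -0.106 for Nr4a3, 0.524 for Fos, 0.237 for Jun, 0.0641 for Junb and 0.362 for Egr1. Nr4a3 was at 0.0582 without control library 95, and Jun at -0.238 with library totals.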

Other observations

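The gene IDs whose level across libraries was most like that of Nr4a1 were ENSRNOG00000018676 and ENSRNOG00000051631. For ENSRNOG00000018676, Pearson's r with Nr4a1 was 0.911 over the 11 libraries and 0.934 without control library 95. It was at 31.5 to 33.5 CPM in the canagliflozin libraries and at 39.3 to 67.0 CPM in the other 8. The CPM given for both IDs were converted back from log2 CPM with a prior count of 2. For ENSRNOG00000051631, r was 0.907 and 0.902 without control library 95. Its canagliflozin libraries, at 1.76 to 2.72 CPM, overlapped the others, at 2.08 to 8.34 CPM. Both were the top 2 of 14978 genes by this measure, so the size of r is set by that choice. The choice used the canagliflozin libraries and so favoured genes that were low in them. Among all tested genes, 0.841% lay lower in CPM in the canagliflozin libraries than in the other 8.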
